A study of Mus musculus with 24 samples.

Results

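IGF2BP1-driven neuroblastomas (TI) were compared with tumor-free adrenal glands of mice that carried the MYCN transgene alone (AGM), which sets both single transgenes against each other. By group label these were 13 of the 24 libraries of the series, 8 TI and 5 AGM. TI were labelled as neuroblastoma tumors, 1 of genotype IGF2BP1 +/-, CRE + and 7 of genotype IGF2BP1 +/+, CRE +, and per the study's methods were taken when the mice met termination criteria. For 1 TI sample the source label reads "tumor adrenal gland". AGM were adrenal glands of genotype MYCN +/-, CRE +, from mice killed at about a year of age. Per the paper, tumor mice of genotype IGF2BP1 +/+ had to be killed before that age. Transgene dose and age thus largely cannot be told apart from group. Adrenal glands of Cre-negative mice (AG, n = 3, genotype CRE -) are given side by side, without a test. In all transgenic mice the transgene lay behind a stop cassette at Rosa26, and an iCre under the Dbh promoter removed the stop in cells of the sympatho-adrenal lineage, so that most cells of an AGM gland, such as those of the cortex, were not targeted. The IGF2BP1 transgene lacked the gene's native 3′UTR. All mice were on a C57Bl6/N background.

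IGF2BP1 is an oncofetal RNA-binding protein that binds mRNAs and shields them from decay, and MYCN is a transcription factor whose amplification marks high-risk neuroblastoma. Neuroblastoma arises from the sympatho-adrenal lineage, which also forms the chromaffin cells of the adrenal medulla. The gland around the medulla is cortex, which makes steroid hormones from cholesterol. A tumor and a whole gland therefore differ in cell types as well as in transgene, and in these bulk samples fewer cells of a type and less RNA per cell cannot be told apart.

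Levels are given as FPKM, fragments per 1000000 sequenced fragments and per 1000 bases of the gene, and fold changes were computed from them as TI minus AGM on the log2(FPKM + 1) scale. Outside the 126 genes that exceeded 1000 FPKM in any library, the AGM and TI libraries held 12334076 to 23683176 reads each, and 6464 to 7500 genes reached 1 FPKM. In AGM those 126 genes held 86.1% to 98.6% of the reads, against 0.217% to 2.21% in TI. All 5 AGM samples came from run 2, whereas TI fell into 6 of run 1, 1 of run 2 and 1 of run 3, so run and group largely cannot be told apart. The columns of the table carry no sample number, hence no comparison within a run could be made and libraries are numbered by column order. TI library 6 and TI library 4 stood apart from the other TI. Among the tumors, TI library 6 held the highest summed level of steroid synthesis genes, the highest major granins and the lowest summed level of neuronal cytoskeleton genes. TI library 4 held the highest summed endothelial and pericyte markers and the highest collagens Col1a1 and Col3a1, but not the highest Dcn, Lum, Pdgfra and Mfap4, and the lowest summed mitosis genes. The p-values measure the spread between these samples.

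Of 10171 genes tested, 7361 (72.4%) passed a limma FDR of 0.05, 3683 higher in TI (36.2%) and 3678 lower (36.2%). Every TI library lay above every AGM library for 2580 genes (25.4%) and below for 2727 genes (26.8%). Against all 8 gland libraries, AGM and AG together, the shares were 18% above and 19% below. Large differences were mostly toward lower values in TI, with 405 genes lower by at least 3 on the log2 scale and 53 higher by as much. Of the 405, 190 belong to a set of genes with unstable values, described at the end. The median log2 fold change over all tested genes was 0.01. When the values were rescaled to the reads outside the 126 extreme genes, this median moved to 0.40 and the split of the calls to 4835 higher (47.5% of genes tested) and 2761 lower (27.1%). Small differences thus depend on the scaling, and counts of called list members after rescaling are given where they differ, to be read against these shares. Medians of most lists moved away from 0 by rescaling, from 2.03 to 3.76 for mitosis genes.

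**Figure D1:**
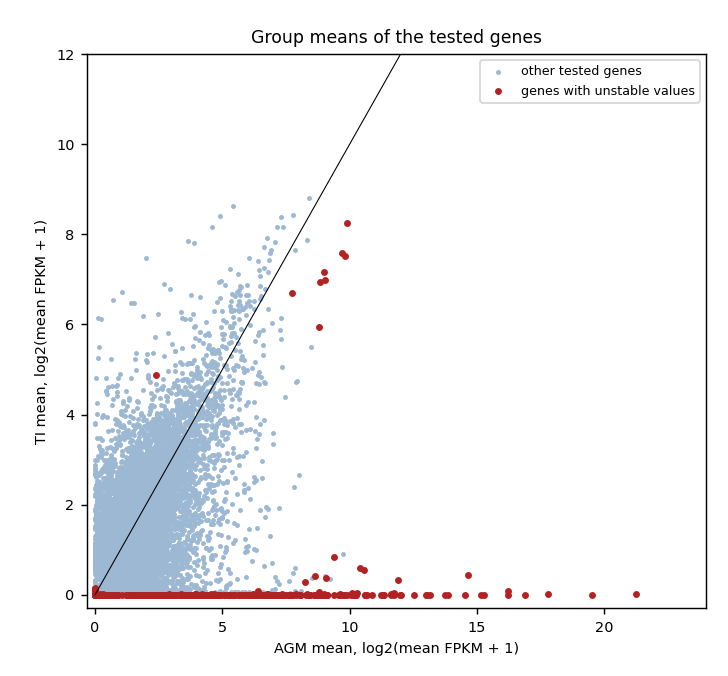
Mean expression of each tested gene in AGM (x axis) and TI (y axis), both as log2 of the mean FPKM + 1, with genes of unstable values in red. Most unstable genes run along the x axis, near 0 in TI and at AGM values far beyond those of other genes, and a further group of stable genes lies below the diagonal at low TI values.

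The targeted genes were examined first. Igf2bp1 did not separate the tumors from the AGM glands in this table. Mouse Igf2bp1 received 12, 12, 8, 10, 10, 16, 0 and 15 reads in TI libraries 1 to 8 and 1, 18, 6, 12 and 9 reads in AGM libraries 1 to 5. Both groups were near the detection limit and overlapped. AG libraries 1 to 3 held 4, 3 and 1 reads, fewer than every tumor except TI library 7. As reads per 1000000 reads outside the extreme genes (RPM), Igf2bp1 stood at 0.589 ± 0.314 (SD, n = 8) in TI and 0.457 ± 0.320 (SD, n = 5) in AGM (exact two-sided permutation test, p = 0.455, adjusted p = 0.656 over 3 genes). Reads counted here were those aligned to the mouse gene, and how reads of the transgene were treated is not given in the sources used here, so this is no measure of the transgene. Its paralog Igf2bp3 was higher in TI at 1.67 ± 1.32 RPM (SD, n = 8) against 0.0816 ± 0.125 RPM (SD, n = 5), with 6 to 83 reads per tumor and 0 to 5 per AGM gland (exact permutation test, p = 0.00155, adjusted p = 0.00466). AG held 3 to 14 reads of Igf2bp3, which overlapped both the tumors and AGM. Lin28b, an oncofetal inhibitor of let-7 maturation, had at most 9 reads in any of these libraries and showed no detectable difference (exact permutation test, p = 0.656). The smallest p this design allows is 0.000777.

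Endogenous Mycn was higher in the IGF2BP1 tumors than in the glands that carried the MYCN transgene. AGM libraries 1 to 5 held 0.689, 0.559, 1.19, 0.838 and 0.613 FPKM, and TI ran from 1.57 over a median of 7.67 to 15.6 FPKM. All 8 tumors lay above all 5 AGM glands, and AG at 0.559 to 0.823 FPKM lay within the AGM range. The log2 fold change of Mycn was 2.20 ± 0.34 (SE, FDR 6.09e-06). Again these are reads of the mouse gene. Of 12 tested members of the MYC network, 7 were higher and 4 lower (8 and 4 after rescaling), where each direction held 36.2% of all tested genes, with a median log2 fold change of 0.32 (0.85 after rescaling). Mxd3, a MAX dimerization partner of proliferating cells, rose from 0.345 to 0.507 FPKM in AGM to 1.86 to 9.56 FPKM in TI (log2 fold change 1.83 ± 0.31, FDR 1.53e-05), and Mycl and Max were called higher as well. Myc moved the other way, from 2.36 to 3.59 FPKM in AGM to 0.40 to 1.74 FPKM in TI (log2 fold change −1.02 ± 0.16, FDR 9.46e-06). The other 3 lower members were Mlxipl, a glucose-sensing lipogenic factor, its partner Mlx, and Mxd4. Mlxipl stood at 4 to 16.5 FPKM in AGM and at 0.194 to 0.561 FPKM in AG, and was listed at 0 in most tumors. Of the 12 tested members, 3 did not reach 1 FPKM in any AGM library and 1 did not in any TI library. These passed the filter on low values through other groups.

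MYC target genes of ribosome and nucleotide synthesis were higher in part. Of 29 tested, 13 were higher and 2 lower (20 and 2 after rescaling), against 36.2% of all tested genes in each direction, with a median log2 fold change of 0.34 (0.88 after rescaling). The largest differences among them were in Mcm5, a subunit of the replicative helicase (log2 fold change 2.20 ± 0.47, FDR 0.000264), and Nop56, which guides RNA methylation in the nucleolus (1.71 ± 0.23, FDR 7.43e-07). The nucleolar proteins Ncl and Npm1 rose by the same 1.58 on the log2 scale. For Ncl, AGM held 1.31 to 3.68 FPKM, AG 5.24 to 5.49 FPKM and TI 6.22 to 11.7 FPKM, so the AG glands lay closer to the tumors than AGM did. The 2 lower genes were Ldha, a glycolytic enzyme, and Hspd1, a mitochondrial chaperone. Of the 29 genes, 7 did not reach 1 FPKM in any AGM library and so passed the filter on low values through other groups. Promoters of this list hold the E-box CACGTG, the motif MYC proteins bind, in 9 of 30 windows from 25 matched genes (30%), against 6.02% of 32851 windows of the table. E-boxes were not confined to genes called higher. They were found in Cdk4, Eif4a1, Nme1 and Apex1 (called higher), in Eif4e and Nop2 (not called), and in both genes called lower, Ldha and Hspd1. The Cdk4 promoter is printed because it holds 4 E-boxes, in capitals. Cdk4, the kinase of cyclin D, was singled out for these after its values were seen, and stood at 8.33 to 10.7 FPKM in AGM and 10 to 43.1 FPKM in TI (log2 fold change 0.96 ± 0.32, FDR 0.0109). The sequence is the 250 bases before the RefSeq start at chr10:127063285-127063534 of GRCm38.p6, plus strand, 5′ to 3′. The match describes letters and not binding.
Cdk4: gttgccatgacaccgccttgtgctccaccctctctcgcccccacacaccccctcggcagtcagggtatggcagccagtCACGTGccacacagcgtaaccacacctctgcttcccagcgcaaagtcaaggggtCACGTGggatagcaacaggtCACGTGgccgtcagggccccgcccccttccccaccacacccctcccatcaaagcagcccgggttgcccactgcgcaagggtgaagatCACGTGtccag

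Mitosis genes were near silent in AGM and active in every tumor. All 21 tested members were called higher (20 by limma-voom), against 36.2% of all tested genes, with a median log2 fold change of 2.03. For each of the 21 every tumor lay above all 8 glands, as did 18% of all tested genes. In AGM 0 of the 21 reached 1 FPKM, so they passed the filter on low values through other groups, and the 3 listed members below the filter had higher means in TI as well. Mki67, the proliferation marker of the chromosome surface, stood at 0.0588, 0.0866, 0.021, 0.062 and 0.0249 FPKM in the AGM libraries, at 0.207 to 0.308 FPKM in AG, and at 1.46, 4.06 and 5.12 FPKM as the lowest, median and highest TI (log2 fold change 2.13 ± 0.26, FDR 1.98e-07). Glands and tumors did not overlap. Ube2c, the ubiquitin-conjugating enzyme of the anaphase-promoting complex, was the most different member of the list, with 0.182 to 0.391 FPKM in AGM and 4.60 to 29.0 FPKM in TI (3.50 ± 0.47, FDR 7.5e-07). Top2a, the topoisomerase that untangles sister chromatids, rose from 0.0411 to 0.15 FPKM to 1.13 to 16.6 FPKM (2.88 ± 0.48, FDR 1.37e-05). Birc5, the survivin subunit of the chromosomal passenger complex, rose from 0.0562 to 0.134 FPKM to 2.14 to 14.5 FPKM (2.72 ± 0.40, FDR 2.75e-06). The kinase Cdk1 and its cyclin Ccna2 differed by 2.03 and 2.38 on the log2 scale. Summed over the list, the level was 2.83 to 5.09 FPKM in AGM, 8.49 to 11 FPKM in AG, and between 31.5 FPKM in TI library 4 and 193 FPKM in TI. All 21 calls held without TI library 4.

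Promoters of the mitosis list, with tested and untested members, share motifs. These describe the list as chosen and not the difference between TI and AGM. CCAAT, the site of the factor NF-Y, was found on either strand in 17 of 19 windows (89.5%), against 33.8% of all 32851 windows. TTTGAA, the cell cycle homology region (CHR) through which the DREAM and MuvB complexes act, was found in 7 of 19 (36.8%) against 16% of all. All 7 genes with a CHR match also held CCAAT, and no CHR match overlapped a CCAAT match. Printed are the 250 bases before the RefSeq start (GRCm38.p6) of the 4 named genes that hold both, 5′ to 3′ on the gene's strand, with both motifs and their reverse complements in capitals: Mki67 at chr7:135716380-135716629 (minus), Top2a at chr11:99024190-99024439 (minus), Cdk1 at chr10:69352913-69353162 (minus) and Ube2c at chr2:164769679-164769928 (plus). They hold 3, 6, 3 and 6 CCAAT matches and 2, 2, 2 and 1 CHR matches.
Mki67: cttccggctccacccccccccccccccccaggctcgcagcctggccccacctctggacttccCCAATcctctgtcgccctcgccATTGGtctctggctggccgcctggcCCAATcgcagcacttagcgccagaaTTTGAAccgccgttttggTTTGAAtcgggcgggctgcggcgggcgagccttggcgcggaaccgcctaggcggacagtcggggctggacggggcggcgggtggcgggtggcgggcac
Top2a: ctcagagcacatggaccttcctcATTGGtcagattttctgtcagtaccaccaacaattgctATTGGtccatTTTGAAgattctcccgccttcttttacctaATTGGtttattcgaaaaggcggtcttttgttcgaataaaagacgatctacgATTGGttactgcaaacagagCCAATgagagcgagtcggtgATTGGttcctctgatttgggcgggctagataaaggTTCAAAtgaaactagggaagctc
Cdk1: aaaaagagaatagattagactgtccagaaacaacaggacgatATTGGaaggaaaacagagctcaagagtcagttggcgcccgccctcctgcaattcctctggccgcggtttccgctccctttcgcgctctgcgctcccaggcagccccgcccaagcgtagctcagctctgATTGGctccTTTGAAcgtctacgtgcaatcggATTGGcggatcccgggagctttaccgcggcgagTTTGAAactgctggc
Ube2c: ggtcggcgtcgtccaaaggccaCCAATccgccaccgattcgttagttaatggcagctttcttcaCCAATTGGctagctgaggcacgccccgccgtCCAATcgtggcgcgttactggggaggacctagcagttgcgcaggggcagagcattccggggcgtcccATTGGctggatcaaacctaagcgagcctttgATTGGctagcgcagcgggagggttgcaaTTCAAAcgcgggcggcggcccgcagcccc

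Genes of DNA replication and S phase were higher in TI too, but the AG glands reached the level of the lowest tumor. All 24 tested members were called higher, against 36.2% of all tested genes, with a median log2 fold change of 1.52. For 19 every tumor lay above every AGM gland (25.4% of all tested genes). Against all 8 glands this held for 11, and for 18% of all tested genes. In AGM 18 of the 24 did not reach 1 FPKM, and the 2 members below the filter had higher means in TI. Rrm2, the S phase subunit of ribonucleotide reductase, stood at 0.387, 0.346, 0.252, 0.675 and 0.267 FPKM in AGM, at 0.592 to 0.918 FPKM in AG and at 1.94, 19.6 and 56.5 FPKM as lowest, median and highest TI (log2 fold change 3.46 ± 0.66, FDR 6.95e-05). Tumors thus differed among themselves in Rrm2 more than the lowest tumor differed from the glands. The licensing factor Cdt1 rose by 2.33 ± 0.34 (FDR 3.08e-06). Mcm2 and Mcm3 of the helicase rose by 1.44 and 1.64, but TI library values reached down to 1.29 and 0.774 FPKM, within and below the AGM range. The summed level was 14.2 to 19 FPKM in AGM, 34.3 to 36.7 FPKM in AG and 34.6 to 267 FPKM in TI. TI library 4 was again the lowest. The E2F motif TTTCCCGC was found in 2 of 24 promoter windows of this list (8.33%), against 0.895% of all windows.

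**Figure D2:**
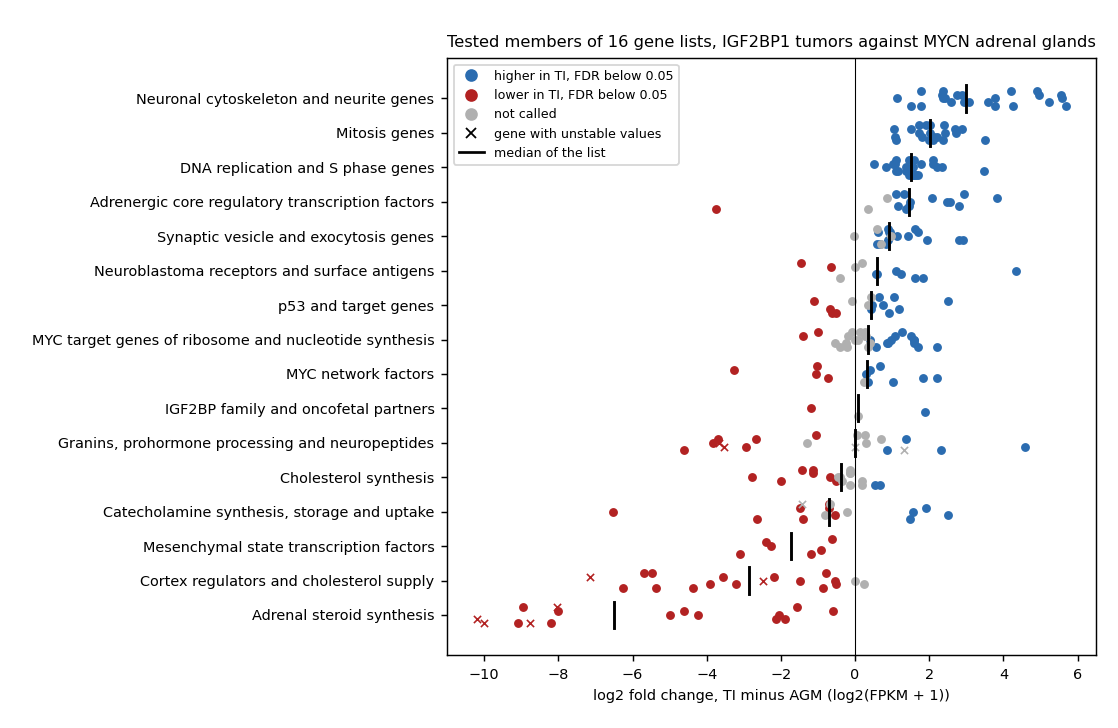
Log2 fold change (TI minus AGM) of every tested member of 16 gene lists, with 1 row per list, points coloured by the limma call at FDR 0.05, crosses for genes of unstable values and a black bar at the median. Neuronal cytoskeleton, mitosis and replication genes lie entirely to the right of 0, steroid synthesis entirely to the left, and catecholamine and granin genes on both sides.

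Neuronal cytoskeleton and neurite genes held the largest rises of the comparison. All 24 were called higher, against 36.2% of all tested genes, with a median log2 fold change of 2.99. For 23 every tumor lay above all 8 glands, as did 18% of all tested genes. In AGM 16 of the 24 did not reach 1 FPKM in any library, so they passed the filter on low values through other groups. Gap43, a growth cone protein, stood at 0.105, 0.0786, 0.115, 0.091 and 0.0392 FPKM in AGM and at 5.84, 68.8 and 139 FPKM as lowest, median and highest TI. The lowest value was that of TI library 6, and the other tumors began at 51.3 FPKM. Its log2 fold change was 5.69 ± 0.46 (FDR 2.06e-10). Tubb2b and Tubb3, tubulins of young neurons, rose by 5.59 ± 0.38 and 4.95 ± 0.26. Tubb3 went from 1.29 to 2.01 FPKM in AGM to 27.8 to 158 FPKM in TI, with AG at 0.651 to 0.918 FPKM. The neurofilament subunits Nefl and Nefm rose by 5.54 and 4.91, Basp1, a growth cone substrate of protein kinase C, by 5.45, and Stmn1 and Stmn4, which destabilize microtubules, by 5.21 and 4.20. Tuba1a was the most abundant named member, at 11.6 to 15.8 FPKM in AGM and 90.4 to 460 FPKM in TI (3.76 ± 0.28, FDR 4.45e-11). Summed, the list stood at 39.9 to 53.6 FPKM in AGM and at 371 FPKM (TI library 6) to 1747 FPKM in TI. All 24 calls held without TI library 6.

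The 12 largest rises outside the unstable genes, each without overlap of AGM and TI, were Gap43, Tubb2b, Nefl, Basp1, Stmn1, Tubb3, Nefm, Cartpt, Nxf3, Gfra3, Prph and Stmn4. Nxf3, a relative of the mRNA export factors, was nearly absent from glands (0 to 0.0817 FPKM in AGM, 0 in AG) and reached 7.69 to 51.4 FPKM in TI (4.44 ± 0.49, FDR 3.85e-08). Gfra3, the artemin receptor of sympathetic neurons, rose from 0.322 to 0.686 FPKM to 3.51 to 56.7 FPKM (4.33 ± 0.47, FDR 3.08e-08). Prph, the intermediate filament of peripheral neurons, was the most variable of them, at 0.643, 27.9 and 105 FPKM as lowest, median and highest TI (4.25 ± 0.74, FDR 2.68e-05).

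Transcription factors of the adrenergic core circuit, which keeps sympathetic neuroblast identity, were higher in most members. Of 15 tested (18 listed), 12 were higher and 1 lower (14 and 1 after rescaling), where each direction held 36.2% of all tested genes. The median log2 fold change was 1.45 (2.39 after rescaling). In AGM 6 of the 15 did not reach 1 FPKM in any library and passed the filter on low values through other groups. Of the 3 factors below the filter, 2 had a higher and 1 a lower mean in TI. Isl1, a LIM homeobox factor of sympathetic neurons, stood at 0.691, 0.49, 0.749, 0.691 and 0.362 FPKM in AGM, at 0.331 to 0.4 FPKM in AG and at 11.6, 23.1 and 47.8 FPKM as lowest, median and highest TI (3.83 ± 0.28, FDR 3.5e-11). No gland came near the lowest tumor. Tfap2b rose by 2.94 ± 0.22 (FDR 4.93e-11) and Hand2 by 1.45 ± 0.20 (FDR 1.25e-06). Phox2a overlapped between the groups, at 10.5 to 20 FPKM in AGM and 9.11 to 107 FPKM in TI, and its call (1.37 ± 0.55, FDR 0.0297) did not hold without 5 of the 13 libraries, each left out in turn. Hand1 was the member called lower. It stood at 17.1 to 28 FPKM in AGM, at 0.395 to 0.547 FPKM in AG and at 0, 0.0632 and 13.1 FPKM as lowest, median and highest TI (−3.74 ± 0.74, FDR 0.00011), so the AG glands were among the tumors in Hand1 and apart from AGM.

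**Figure D3:**
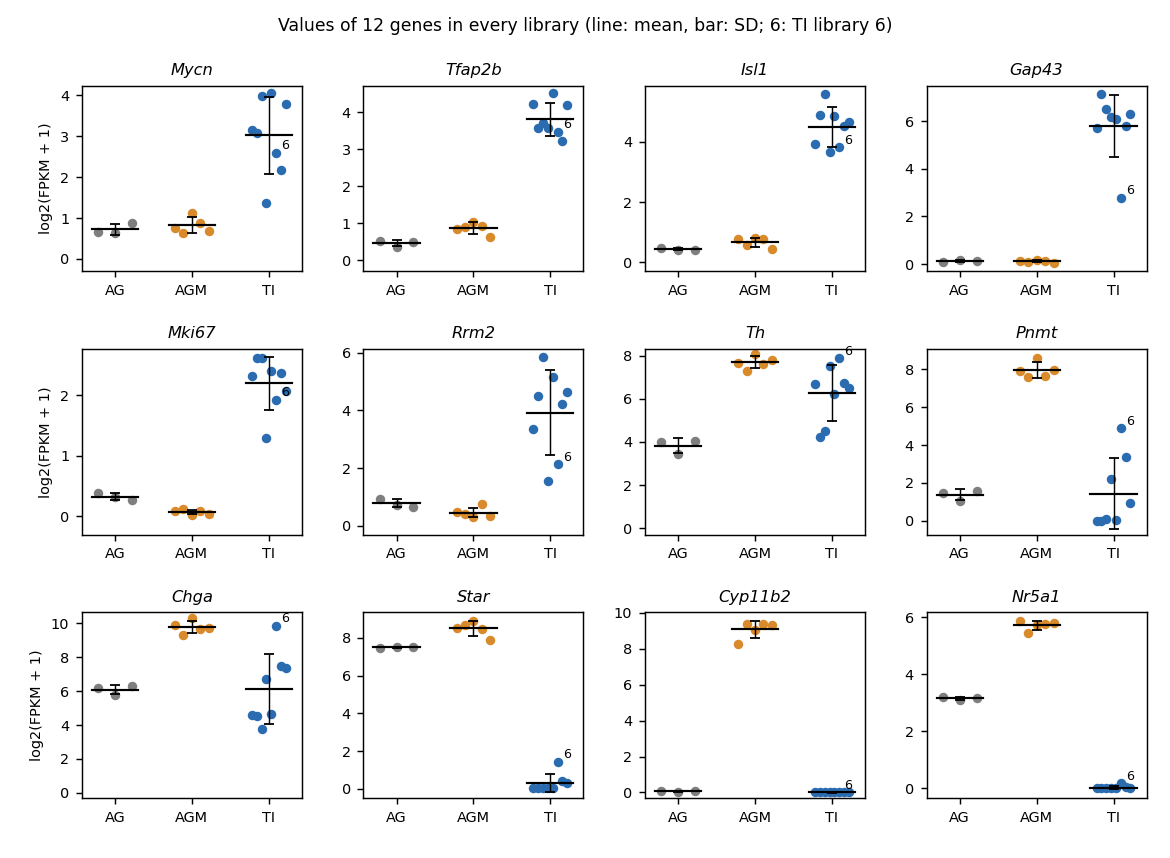
Expression of 12 genes in each AG, AGM and TI library as log2(FPKM + 1), with the group mean as a line, the SD as a bar and the digit 6 on TI library 6. Mycn, Tfap2b, Isl1, Gap43, Mki67 and Rrm2 were higher in TI than in AGM without overlap, Star, Cyp11b2, Nr5a1 and Pnmt were lower without overlap, and Th and Chga overlapped.

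Chromaffin genes did not follow the neuronal genes. Of 15 catecholamine genes, 4 were higher and 7 lower, where each direction held 36.2% of all tested genes, with a median log2 fold change of −0.69. After rescaling and by limma-voom 4 were higher and 5 lower, and the rescaled median was −0.40. Th, the rate-limiting enzyme of catecholamine synthesis, stood at 205, 159, 269, 197 and 224 FPKM in AGM and at 18.1, 95.7 and 235 FPKM as lowest, median and highest TI, and was not called (−1.42 ± 0.94, FDR 0.18). Of the 8 tumors, 2 reached the AGM range. AG held only 9.72 to 15.6 FPKM of Th, below all other libraries here. Dbh, which makes noradrenaline and drives the Cre, was not called either, at 68.5 to 101 FPKM in AGM and 21.5 to 246 FPKM in TI (−0.23 ± 0.60, FDR 0.751), and its sign turned after rescaling. The 4 higher genes were Ddc, which makes dopamine (1.92 ± 0.62, FDR 0.0087), the vesicular transporter Slc18a2 (2.50 ± 0.44, FDR 3.27e-05), the noradrenaline transporter Slc6a2 and Maoa. Pnmt, which turns noradrenaline into adrenaline and marks the adrenergic chromaffin cell, was the largest difference of the list. It stood at 245, 192, 392, 202 and 254 FPKM in AGM, at 1.07 to 2.01 FPKM in AG and at 0.00713, 0.477 and 28.8 FPKM as lowest, median and highest TI (−6.52 ± 1.13, FDR 2.44e-05). AGM stood apart from both other groups in Pnmt.

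Granins and neuropeptides split in the same manner. Of 19 tested, 4 were higher and 8 lower (4 and 6 after rescaling, 3 and 6 by limma-voom), with a median log2 fold change of −0.00, so the share of lower members was near the 36.2% of all tested genes. In AGM 4 of the 19 did not reach 1 FPKM in any library, and in TI 2 did not, so these passed the filter through other groups. The major granins were lower, Chga by −3.68 ± 0.91 (FDR 0.00103), Chgb by −3.69 ± 0.87 (FDR 0.000686) and Scg2 by −3.83 ± 0.66 (FDR 2.2e-05). Chga, the main matrix protein of chromaffin granules, held 641 to 1270 FPKM in AGM, 53.9 to 78.4 FPKM in AG and 12.6 to 926 FPKM in TI, and 1 of 8 tumors, TI library 6, reached the AGM range. TI library 6 was also the highest tumor in Th, Pnmt, Chgb, Scg2 and Npy, and the calls of Pnmt and Chga held without it. Th, Chga, Npy and Sst belong to the genes of unstable values, as each exceeded 1000 FPKM in some library or jumped in read number. Gal, the neuropeptide galanin, fell from 57.4 to 138 FPKM to 0.317 to 20 FPKM (−4.62 ± 0.67, FDR 2.44e-06), with AG at 2.62 to 3.50 FPKM. Npy was called lower at −3.53 ± 1.52 (FDR 0.042), a call that was lost after rescaling. Higher were Cartpt, Scg3, the convertase Pcsk2 and Adcyap1, the last of which was not called by limma-voom (FDR 0.192). Cartpt, the precursor of CART peptides, rose from 1.53 to 2.72 FPKM to 11.7 to 211 FPKM (4.59 ± 0.54, FDR 1.07e-07), and Scg3, a granin that anchors granule cargo, from 2.06 to 4.54 FPKM to 6.29 to 15.5 FPKM (1.36 ± 0.17, FDR 2.42e-07).

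Genes of synaptic vesicles were higher without exception among the calls. Of 19 tested, 15 were higher and 0 lower (limma, 0 also at an unadjusted p under 0.05 and by limma-voom). Each direction held 36.2% of all tested genes. The median log2 fold change of the list was 0.91. After rescaling 18 were higher, against 47.5% of all tested genes, with a median of 1.57. In AGM 3 of the 19 did not reach 1 FPKM in any library and passed the filter through other groups. Syt11 rose from 1.14 to 1.87 FPKM to 12.2 to 24.5 FPKM (2.92 ± 0.16, FDR 3.13e-13) and Cplx1, which clamps vesicle fusion, from 0.686 to 1.26 FPKM to 6.65 to 21.9 FPKM (2.81 ± 0.25, FDR 9.7e-10). The vesicle proteins Syp and Syt1 overlapped between groups and were not called, but were past the threshold after rescaling. Among neuroblastoma receptors and surface antigens 7 of 12 tested were higher and 2 lower, against 36.2% of all tested genes in each direction. Their median was 0.58 (1.22 after rescaling). In AGM 6 of the 12 did not reach 1 FPKM in any library, and in TI 2 did not, so these passed the filter through other groups. Alk, the receptor kinase mutated in familial neuroblastoma, was near 0 in AGM (0.00842 to 0.0286 FPKM) and stood at 0.905 to 7.03 FPKM in TI (1.62 ± 0.27, FDR 1.43e-05). Ret rose from 0.256 to 0.381 FPKM to 2.49 to 6.56 FPKM (1.83 ± 0.30, FDR 1.04e-05). The 2 lower genes were the nicotinic receptor subunit Chrnb4 (−1.47 ± 0.09, FDR 2.09e-12) and Ngfr.

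Of 16 mesenchymal state factors, 6 passed the filter on low values and were called lower. No TI library reached 1 FPKM in 4 of these 6, which therefore passed the filter through other groups and had to lie lower in TI. Of the 10 factors below the filter, 7 had a lower and 3 a higher mean in TI. Fosl2, an AP-1 subunit, fell from 10.1 to 17.2 FPKM to 0.153 to 2.04 FPKM (−3.11 ± 0.33, FDR 2.25e-08), with AG between at 3.98 to 5.63 FPKM. Twist1 stood at 4.17 to 5.71 FPKM in AGM and at 0 to 0.301 FPKM in TI (−2.41 ± 0.33, FDR 8.86e-07), and the AG range of 0.189 to 0.284 FPKM lay inside that of TI. Tcf21, a factor of capsule and stroma, fell by 2.26 on the log2 scale (SE 0.06, FDR 8.65e-20). The longer lists that the study used for adrenergic (ADRN) and mesenchymal (MES) states moved in opposite directions. Of 293 tested ADRN genes, 204 were higher and 35 lower, with a median of 0.94, and of 350 tested MES genes, 45 were higher and 208 lower, with a median of −0.56. Rescaled, the counts were 228 and 27 for ADRN and 67 and 157 for MES. Of all tested genes 36.2% were called in each direction, and after rescaling 47.5% were higher and 27.1% lower. The mean log2(FPKM + 1) of ADRN genes went from 0.976 to 1.02 in AG over 1.1 to 1.25 in AGM to between 1.73 and 2.03 in TI, without overlap between any of the groups. For MES genes it lay between 1.05 and 1.53 in TI, below AG (1.65 to 1.66) and AGM (1.72 to 1.80).

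Genes of steroid synthesis, the work of the cortex, were lower in the tumors, and those that carry out its steps in the cortex, such as Star and Cyp11a1, were near 0. All 16 tested steroid synthesis genes were lower (15 by limma-voom), against 36.2% of all tested genes. The median log2 fold change was −6.49, and −4.41 without the 4 members of unstable value. No TI library reached 1 FPKM in 7 of the 16, which passed the filter through other groups, so their direction was largely fixed. Star, which carries cholesterol into mitochondria, stood at 371, 416, 476, 354 and 238 FPKM in AGM, at 178 to 184 FPKM in AG and at 0.0151, 0.0391 and 1.69 FPKM as lowest, median and highest TI (−8.21 ± 0.19, FDR 1.12e-20). Cyp11a1, the side-chain cleavage enzyme, fell by 8.0 on the log2 scale (SE 0.11, FDR 2.27e-25), with AG at 15.4 to 17.0 FPKM. Cyp11b1, which makes corticosterone, stood at 512 to 788 FPKM in AGM, 76.2 to 81.9 FPKM in AG and 0 to 1.64 FPKM in TI (−8.94 ± 0.22, FDR 2.55e-20). For these 3 genes both kinds of gland lay far above every tumor. Members that serve other pathways too were still expressed in TI. Por, the electron donor of microsomal P450 enzymes, held 3.51 to 6.33 FPKM in TI against 15.6 to 31.4 FPKM in AGM, and Hsd17b12, which also elongates fatty acids, 3.32 to 6.21 FPKM against 13.7 to 17.6 FPKM. Cyp11b2, the aldosterone synthase, was different. AGM held 311, 665, 527, 662 and 632 FPKM, but AG only 0.0351 to 0.0631 FPKM, close to the 0 to 0.0117 FPKM of TI (−9.08 ± 0.16, FDR 5.29e-23). The highest TI values of Star, Cyp11a1, Cyp11b1 and Cyp11b2 were all those of TI library 6. Summed outside unstable genes, the list stood at 1674 to 2355 FPKM in AGM, 611 to 663 FPKM in AG and 10.7 to 23.8 FPKM in TI, and without TI library 6 all 16 calls held.

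Cortex regulators fell with the enzymes. Of 18 tested, 16 were lower and 0 higher (limma, 0 also at an unadjusted p under 0.05), with a median log2 fold change of −2.86. Of all tested genes 36.2% were lower. After rescaling and by limma-voom 14 regulators were lower and 1 higher. No TI library reached 1 FPKM in 9 of the 18, which passed the filter through other groups, so their direction was largely fixed. Nr5a1 (SF-1), the nuclear receptor that drives steroidogenic identity, stood at 42.8 to 56.8 FPKM in AGM, 7.66 to 8.31 FPKM in AG and 0 to 0.13 FPKM in TI (−5.69 ± 0.06, FDR 2.76e-27). The ACTH receptor Mc2r and its partner Mrap fell by 5.46 and 6.27 on the log2 scale, and Scarb1, which takes up cholesterol esters, by 4.36. Kcnk3, a potassium channel of the cortex, stood at 117 to 169 FPKM in AGM and at 118 to 125 FPKM in AG, and fell to 1.23 to 6.61 FPKM in TI (−5.38 ± 0.27, FDR 4.81e-14). Nr0b1 (DAX-1), a gene of unstable values, showed the pattern of Cyp11b2, with 105 to 170 FPKM in AGM, 0.0104 to 0.0158 FPKM in AG and 0 to 0.0105 FPKM in TI (−7.16 ± 0.11, FDR 4.49e-24). The cause of such differences between AGM and AG was not tested. The SF-1 motif AAGGTCA was found in 1 of 13 windows of the steroid list, that of Akr1b7 (7.69%), and in 0 of 14 windows of the regulator list, against 4.08% of all windows.

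Cholesterol synthesis genes moved in both directions. Of 18 tested, 2 were higher and 7 lower (4 and 6 after rescaling), and the share of lower members was close to the 36.2% of all tested genes. The median was −0.38, with −0.23 when AGM library 4 was left out and −0.11 after rescaling. Sqle, the squalene epoxidase, was among the higher genes (0.52 ± 0.19, FDR 0.0176). Dhcr7, which completes cholesterol, fell from 14.9 to 21.0 FPKM in AGM to 0.731 to 2.58 FPKM in TI (−2.77 ± 0.16, FDR 3.61e-13), with AG at 19.7 to 23.0 FPKM. Hmgcs1 was not called (−0.35 ± 0.30, FDR 0.297). Among p53 and its targets 8 of 15 tested were higher and 4 lower (9 and 2 after rescaling), against 36.2% of all tested genes in each direction, with a median of 0.42 (0.998 after rescaling). In AGM 2 of the 15 did not reach 1 FPKM in any library, and in TI 1 did not, so these passed the filter through other groups. Cdkn1a (p21), which halts the cell cycle, rose from 1.45 to 2.70 FPKM in AGM to 8.42 to 24.5 FPKM in TI (2.52 ± 0.25, FDR 5.7e-09), with AG at 3.10 to 3.78 FPKM, below every tumor. Bbc3 (PUMA), a killer of the BCL2 family, rose by 1.17 ± 0.17 (FDR 1.85e-06) and Trp53 itself by 0.75 ± 0.21 (FDR 0.00317). The 4 lower genes were Phlda3, Gadd45a, Sesn2 and Rbl2, of which Phlda3 and Gadd45a were no longer called after rescaling. Of the 3 tested genes of the IGF2BP and oncofetal list, the chromatin protein Hmga1 rose by 1.88 ± 0.17 (FDR 1.48e-09) and Igf2 fell by 1.18 on the log2 scale (SE 0.11, FDR 3.02e-09). Igf2 stood at 0.599 to 1.96 FPKM in AGM, but at 0.00163 to 0.00166 FPKM in AG and 0 to 0.00175 FPKM in TI. It held 315 to 899 reads in AGM and at most 1 in any AG or TI library. Igf2 thus narrowly missed the definition of unstable values, which asks for at least 1000 reads in a library outside AG and TI.

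**Figure D4:**
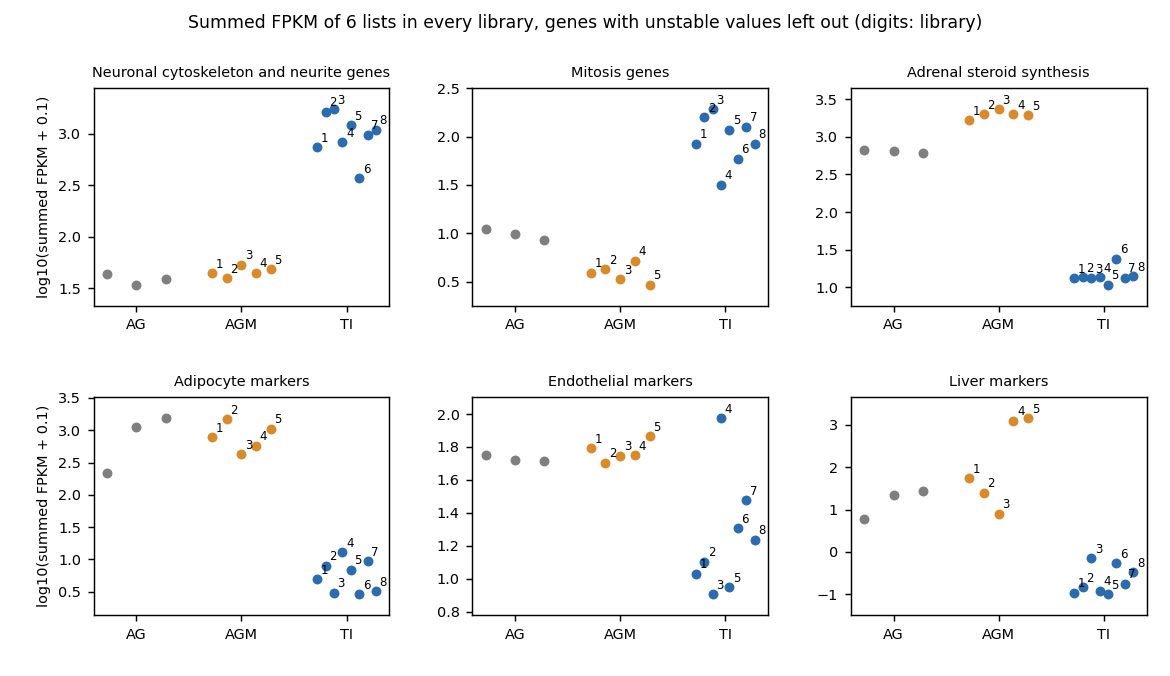
Summed FPKM of 6 gene lists in each AG, AGM and TI library, as log10 of the sum + 0.1, with the library number beside AGM and TI points. Neuronal and mitosis sums were higher in every TI than in every gland, steroid and adipocyte sums were lower, TI library 4 reached the endothelial sum of the glands, and AGM libraries 4 and 5 exceeded all others in the liver sum.

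Besides cortex genes, the glands held markers of fat and of other tissues that were near 0 in the tumors. All 12 adipocyte markers were lower in TI, against 36.2% of all tested genes, with a median log2 fold change of −5.20. No TI library reached 1 FPKM in 10 of the 12, which passed the filter through other groups, so their direction was largely fixed. The adipocyte sums were 421 to 1485 FPKM in AGM, 216 to 1524 FPKM in AG and 2.82 to 13 FPKM in TI. Adipoq stood at 25.6 to 68.8 FPKM in AGM and at most 0.193 FPKM in TI (−5.38 ± 0.39, FDR 4.38e-11). Liver markers were below 1 FPKM in every TI library for all 8 members tested, which passed the filter through other groups and so had to lie lower in TI (8 lower by limma, 2 by limma-voom). Their sum reached 1252 and 1433 FPKM in AGM libraries 4 and 5 against 7.87 to 54.2 FPKM in AGM libraries 1 to 3. All 12 tested endothelial markers were lower (10 after rescaling), with a median of −0.97. Their sum was 7.98 to 29.8 FPKM in the other TI but 94.0 FPKM in TI library 4, above the 50.6 to 73.1 FPKM of AGM. Pecam1, the endothelial adhesion molecule CD31, was called at FDR 0.0369 (−0.64 ± 0.27), a call that did not hold after rescaling or without any of 8 libraries left out singly. Of 10 tested macrophage markers 7 were lower (4 after rescaling), with a median of −0.72, the antigen-presentation chain Cd74 by 3.95 on the log2 scale. Fibroblast and capsule markers were 2 higher (Col1a1 and Col3a1) and 7 lower of 11 (3 and 6 after rescaling). In TI 7 of the 11 did not reach 1 FPKM in any library, so the direction of these was largely fixed by the filter. Schwann and sustentacular markers were 1 higher (Mbp) and 1 lower (S100b) of 8, of which 6 did not reach 1 FPKM in any TI library and 6 in any AGM library. Smooth muscle and pericyte markers were 1 higher (Rgs5) of 4 (2 after rescaling), and exocrine pancreas markers 4 lower of 7 (2 by limma-voom). Of these 7 pancreas markers, 5 belong to the genes of unstable values. In TI 6 of the 7 did not reach 1 FPKM in any library, so their direction was largely fixed. Too few markers were tested for lymphocytes, kidney, erythroid cells (1 each, Cd79a, Aqp2 and Alas2, all lower, Alas2 not after rescaling) and skeletal muscle (Acta1 higher and Pygm lower of 3, 2 higher after rescaling). The part of these cells in the differences described here was not tested.

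Cortex and lipid genes led the genes lower in TI. The 12 largest falls outside the unstable genes were Adh1, Cyp11b2, Cyp11b1, Scd1, Star, Cyp11a1, Cyp2f2, Lep, Thrsp, Gpd1, Agpat2 and Cdkn1c. Of these, Cyp11b2 narrowly missed the definition of unstable values, which allows at most 10 reads in AG. It held 11 reads in AG library 1, against 40928 to 99302 in AGM. Adh1, an alcohol and retinol dehydrogenase, fell from 685 to 994 FPKM in AGM to 0 to 5.09 FPKM in TI (−9.12 ± 0.41, FDR 5.37e-15), with AG at 180 to 193 FPKM. Scd1, Thrsp, Gpd1 and Agpat2 serve lipid synthesis, and Lep encodes leptin. Lep stood at 221, 773, 132, 83.8 and 181 FPKM in AGM but at 0.578 to 1.16 FPKM in AG, although the adipocyte sums of both groups overlapped. Cdkn1c (p57), an imprinted inhibitor of the cell cycle, fell from 93.2 to 172 FPKM to 0.00403 to 0.443 FPKM (−6.79 ± 0.55, FDR 2.54e-10), with AG at 5.70 to 7.16 FPKM. Across all 3678 genes called lower, AG lay above all tumors for 2249 (61.1%) and overlapped them for 1419 (38.6%). For the 3683 called higher, AG lay below all tumors for 2045 (55.5%) and overlapped them for 1565 (42.5%). Where AG overlapped the tumors, AG lay outside the AGM range for 1018 of the genes called lower (27.7%) and 1190 of those called higher (32.3%), and overlapped AGM as well for 401 (10.9%) and 375 (10.2%). AG was not tested against either group.

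Genes with unstable values were 539, defined as above 1000 FPKM in any library, or with at most 10 reads in every AG and TI library and at least 1000 in 1 of the other libraries. Of the 126 genes above 1000 FPKM, 85 were above it in AGM and 0 in TI. Of 380 tested, 287 were called lower, a direction that the definition largely fixes, since it asks for few reads in TI or for values that no TI library reached. Those with the highest AGM means were Ninj2, Slc17a1, Tex29, Gm9044 and Ctrb1. Ninj2 stood at 12269500 FPKM in AGM library 3, at 0.0127 FPKM in AGM library 5 and at 0 in AGM libraries 1, 2 and 4. Ctrb1 was high in AGM library 2 alone, at 385599 FPKM. Neither passed the test (Ninj2 FDR 0.15, Ctrb1 FDR 0.395). Slc17a1, high in AGM libraries 4 and 5, and Tex29, high in AGM libraries 2 and 5, did so at FDR 0.0105 and 0.0112. Values of this size in 1 or 2 of 5 glands cannot be read as levels of the gland, and the cause was not tested.

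Expression relative to AGM differed by chromosome. The median log2 fold change of the 331 tested genes of chromosome 12, which carries Mycn, was 0.42 above that of all genes, and 58.3% of them were called higher. Per tumor, the deviation of chromosome 12 ran from 0.232 to 0.658 and was above 0 in 8 of 8. Within 20 Mb of Mycn (72 genes) the shift was 0.34, with TI at 0.148 to 0.582 and AG at 0.144 to 0.181. Chromosome 11, which carries Igf2bp1, was shifted by 0.18 (902 genes, above 0 in 8 of 8 tumors), and its part from Igf2bp1 to the end by 0.31 (327 genes, above 0 in 7 of 8), where AG lay at −0.0376 to −0.0132. The shift of the whole chromosome was not particular to it. Chromosome 18 was shifted by 0.15 (227 genes, above 0 in 8 of 8 tumors) and chromosome 17 by 0.14 (502 genes, above 0 in 6 of 8). The lowest were chromosome 9 at −0.28 (530 genes, −0.352 to −0.0567 in TI) and chromosome 19 at −0.24 (358 genes), below 0 in 8 of 8 tumors. On chromosome 6 AG was as low as TI, at −0.176 to −0.161 against a TI median of −0.103. Genes of a chromosome are not independent and no test was made of these shifts.

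**Figure D5:**
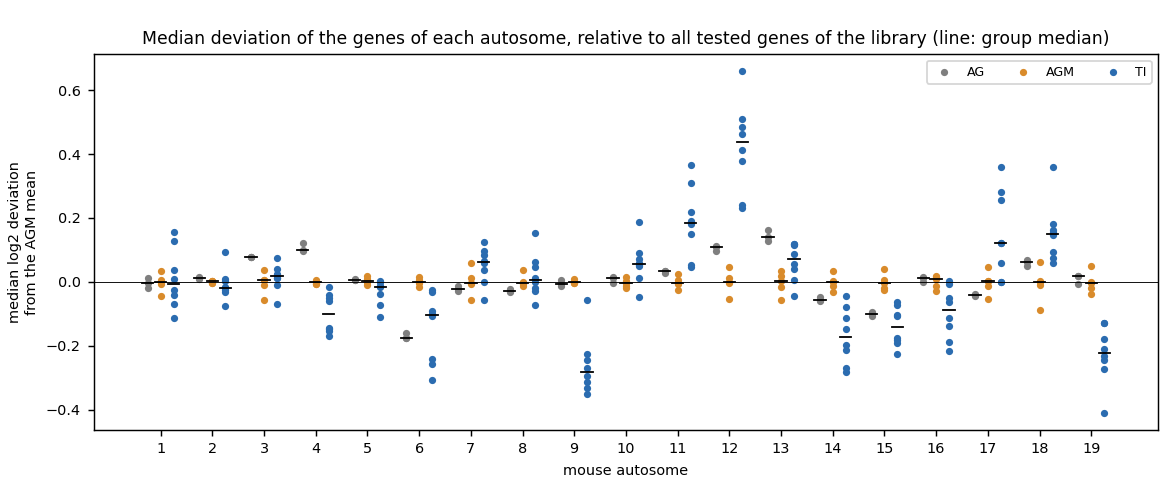
Median deviation of each library from the AGM mean per autosome, in log2(FPKM + 1), minus the library's median over all autosomes, for AG, AGM and TI. AGM lie near 0 by construction, and TI stand highest on chromosome 12 and lowest on chromosomes 9 and 19.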

How the data were processed

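RNA-seq libraries (poly(A)-enriched, strand-specific) of 13 samples, 8 TI and 5 AGM, were compared, with 3 AG and 8 double transgenic tumors entering the estimate of the spread. Per the labels and the study's methods, the authors trimmed reads with cutadapt 2.8, aligned them with HISAT2 2.1.0 to mm39, processed them with SAMtools 1.10, counted them with featureCounts 2.0.0, corrected the counts for a batch with ComBat-seq and scaled them by TMM in edgeR 3.40 (versions from the submitters' processing notes). The authors deposited FPKM of 21833 protein-coding genes, together with gene lengths and their own log2 fold changes, p-values and FDR, which were not used. The correction can move values of genes with few reads in 1 run far, and the values are not the sequenced counts. Each library's values times gene length could be divided by a fixed step to give whole numbers (100% of entries, tolerance 0.01 reads), taken as reads. These cover counting error only.

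Columns were assigned to groups by name, and none named a single sample. The unit was FPKM, so limma 3.58.1 (intensity trend, R 4.3.3) was run on log2(FPKM + 1), which understates changes of low genes, for the 10171 genes that reached 1 FPKM in 3 or more of the 24 libraries. FDR were set by Benjamini-Hochberg over these genes, with a threshold of 0.05. The code was tested on simulated data with known changes. Genes below the filter were compared by exact permutation tests over 1287 splits. Alternatives were a pseudocount of 0.1, other filters, a fit of both groups alone, rescaling to the reads outside the 126 extreme genes, limma-voom on the recovered reads, leaving out genes of unstable values, and leaving out each library.

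The groups, gene lists and rules were chosen with earlier results of these data known. Named were up to 6 members per list (the first 4, and the called members with the largest change), the 12 largest rises and falls without overlap and with at least 3 FPKM in the higher group (clone names and family members left out, 34 and 19), the 5 unstable genes with the highest AGM mean, and the 8 genes with the largest SD per group. Members that complete a short count, and Cdk4, were named after their values were seen. Some genes that this rule names are not reported here. Promoters were RefSeq windows of 250 bases before the start (GRCm38.p6, 27025 genes), searched on both strands, and matched 19 of 24 mitosis, 21 of 26 replication, 25 of 30 MYC target, 12 of 17 steroid and 11 of 21 cortex regulator genes. Gene positions were those of GRCm39, matched for 21687 genes.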

Additional observations from a re-analysis of the deposited data

Results flagged for a closer look

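Within AGM or TI, 46 of 296 groups examined (148 named genes in each group) held a library at the edge whose gap to the next library took up more of the group's range than 95% of random groups of that size allow. Chance alone gives about 1 such group in 20. All values below are FPKM, and the cause of these deviations was not tested.

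TI library 6 was the library singled out most often, in 23 groups. It held the highest cortex values of all tumors, with Star at 1.69, Cyp11b1 at 1.64, Cyp11a1 at 0.367, Mrap at 0.330, Mc2r at 0.134, Nr5a1 at 0.13, Cyp11b2 at 0.0117, Hsd3b6 at 0.0105 and Nr0b1 at 0.0105. These stayed far below the AGM range, and Hsd3b6, Cyp11b2 and Nr0b1 rested on 2 reads each. Also highest there were Adh1 (5.09), Gpd1 (2.42), Scd1 (1.18), Cyp2f2 (0.412), Plin1 (0.0694), Mlxipl (0.00685), Armc12 (0.0834), Prss28 (0.109), Pcsk2 (3.39) and Ngfr (0.941). Lowest among the tumors were Gap43 at 5.84, Basp1 at 17.6, Gfra3 at 3.51 and Ldha at 5.40. Not every neuronal gene was low there, as Map1b was highest in TI library 6 (19.4, against 4.08 to 10.6 in the other tumors).

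TI library 4 stood apart in 6 groups. The endothelial marker Pecam1 was at 6.86 there against 0.595 to 2.08 in the other tumors, and the glial factor Sox10 at 0.398. Adipoq stood at 0.193, Ctrb1 at 0.419 and Slc17a1 at 0.0116 (3 reads), each the highest tumor value, and Mlx at 2.12 was the lowest. Single deviations elsewhere in TI were Twist1 (0.301) and Apoa1 (0.38) in TI library 3, S100b (0.0350) in TI library 2 and Hamp2 (0.113) in TI library 1. Aqp2 (0.00551) in TI library 5 rested on 1 read.

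Among the glands, AGM library 5 was lowest in Slc18a2 (0.846), Basp1 (0.803) and Maoa (0.963) and alone in Pnoc (0.0111, 2 reads) and Tcp10c (797). AGM library 4 was highest in Ube2c (0.391) and Cdt1 (0.504). AGM library 3 held the extreme values of Ninj2 (12269500) and Gm9044 (610404) and the highest Cyp11b1 (788), AGM library 2 that of Ctrb1 (385599), and AGM library 1 was the sole AGM library with Sst (21.2).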

How the results depend on the processing

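The count of 7361 calls stayed between 6962 (without AGM library 5) and 7399 (without TI library 6) when each library was left out, and was 7394 with a pseudocount of 0.1, 7627 with both groups fitted alone, 7596 after rescaling, 7379 by limma-voom, 7076 of 9791 without genes of unstable values and 10816 of 18862 without a filter. It was 2601 of 4000 genes where every AGM and TI library had to reach 1 FPKM, a filter that removes genes absent from a group, and 3093 where an absolute log2 fold change of 1 was asked for. No gene called here was called in the opposite direction by any of these fits, and rescaling and limma-voom shared 87.4% and 84.8% of the calls in the same direction. The Igf2bp1 difference of 0.132 RPM ranged from 0.0330 to 0.252 RPM without each library, and was −0.000907 on the deposited FPKM (exact permutation test, p = 0.797), so its sign is not determined.

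Of the named genes, Dbh turned to 0.22 after rescaling and 0.22 by limma-voom, and ranged from −0.47 to 0.0231 without each library. The log2 fold change also crossed 0 when a library was left out for Ninj2 (−5.88 to 0.00851), Gm9044 (−4.80 to 0.00614), Ctrb1 (−4.57 to 0.0707) and Tcp10c (−2.39 to 0.0163), each high in 1 AGM library, and for Depp1 (−0.0223 to 0.73). Calls were lost in at least 1 fit without a library for 14 of the named genes, among them Alas2, Aqp2, Armc12, Col1a1, Mbp, Npy, Pecam1, Phox2a, Pnoc, Prss28, Slc17a1, Sqle and Tex29. Limma-voom gave no call for 19 of the called genes, which were Armc12, Prss28, Slc17a1, Tex29, Adcyap1, Acta1, Pecam1, Npy, Phlda3, Gadd45a, Mvk and the 8 given under other observations (Hmx1, Igfbpl1, Arhgap36, Pnoc, Alb, Apoa1, Hpx and Hamp2). Rescaling gave none for Pecam1, Npy, Phlda3, Gadd45a, Mvk and Alas2. Th was called lower when both groups were fitted alone (FDR 0.0307). No paired analysis was possible because the columns of the table carry no sample number that could pair AGM with TI, and the replicate block was not run for the same reason. Low genes were limited by depth, as 12334076 to 23683176 reads leave few reads at values under 0.1 FPKM.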

Other observations

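The median SD of log2(FPKM + 1) over tested genes was 0.247 within TI and 0.136 within AGM. The 8 genes with the largest SD in TI were Prph, Depp1, Pnmt, Peg10, Igfbpl1, Pnoc, Hmx1 and Arhgap36. Peg10, an imprinted gene of retroviral origin, ran from 2.37 over a median of 15.1 to 102 FPKM in TI, around the 6.29 to 10.8 FPKM of AGM, and did not pass the limma test (log2 fold change 0.64 ± 0.96, FDR 0.564). Hmx1, a homeobox factor of sympathetic neurons, was listed at 0 in the lowest tumor and reached 53.7 FPKM in the highest, with at most 0.0157 FPKM in AGM (2.98 ± 0.57, FDR 6.8e-05). Igfbpl1 ran from 0.0963 to 40.4 FPKM in TI with at most 0.0114 FPKM in AGM (3.05 ± 0.65, FDR 0.000243). Arhgap36, known as an antagonist of protein kinase A, stood at 0.0444, 13.5 and 34.6 FPKM as lowest, median and highest TI against 0.206 to 0.652 FPKM in AGM (2.86 ± 0.67, FDR 0.000587). Pnoc, the nociceptin precursor, was near 0 in some tumors and at 27.5 FPKM in the highest (1.83 ± 0.73, FDR 0.0292). None of Hmx1, Igfbpl1, Arhgap36 and Pnoc passed by limma-voom (FDR 0.347, 0.224, 0.0734 and 0.353). Depp1 reached 35.6 FPKM in 1 tumor against a TI median of 0.635 FPKM and was not called (FDR 0.572).

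Among the most variable genes in AGM were Tcp10c, Armc12, Prss28, Alb, Apoa1, Hpx and Hamp2, of which the last 4 are made by hepatocytes. Alb, serum albumin, stood at 20.9, 4.69, 0.697, 610 and 677 FPKM in AGM libraries 1 to 5, at 0.458 to 0.949 FPKM in AG and at most 0.0981 FPKM in TI. Apoa1, Hpx and Hamp2 were likewise high in AGM libraries 4 and 5. Their lower values in TI were called by limma (FDR 3.94e-05 for Alb), but not by limma-voom (FDR 0.0663 for Alb). Armc12 and Prss28 were high in AGM libraries 2 and 4 alone, at 218 and 164 FPKM and at 158 and 172 FPKM, and neither was called by limma-voom (FDR 0.237 and 0.169).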
